A study of Mus musculus with 8 samples.

Results

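The genes described here are 10 members of the machinery that licenses and starts DNA replication: Mcm2, Mcm3, Mcm4, Mcm5, Mcm6, Mcm7, Mcm10, Cdc6, Cdt1 and Cdc45. They were taken by name, with every probe set that the platform annotation gives to them, out of 18193 genes on the array. They have 28 probe sets, of which 26 passed the filter on dim signals and were tested. The arrays measured mouse embryonic fibroblasts (MEFs) isolated at E14.5 from C57BL6/J embryos. Cells lacking Hif-p4h-1 (KO), the prolyl hydroxylase encoded by Egln2, and wild-type cells (WT) were each kept under hypoxia or normoxia. The 4 groups were KO hypoxia, KO normoxia, WT hypoxia and WT normoxia, with 2 arrays each. The titles mark 1 array of every group as a second one. These 4 arrays are called the second set and the others the first set. The sources used here do not give the oxygen level, the length of the exposure or the passage of the cells. They do not say either whether the sets come from separate cultures or embryos. All p-values therefore measure array-to-array spread, part or all of which may be technical.

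Before S phase, each replication origin is licensed. The origin recognition complex, together with Cdc6 and Cdt1, loads the ring of Mcm2 to Mcm7 onto DNA in an inactive form. At the start of S phase, kinases turn the loaded ring into the active helicase by recruiting Cdc45 and the GINS complex, and Mcm10 helps to set it moving. The genes for these proteins are classical targets of E2F factors, and in cultured fibroblasts their RNA is known to be low in resting cells and high in dividing ones.

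The promoters of the members that the results turn on are shown first. RefSeq windows of assembly GRCm38.p6, running from 250 bases before to 50 bases after an annotated gene start, were at hand for 9 of the 10 genes, with 10 windows in all. Mcm2 and Mcm3 are given because they had the largest hypoxia differences upward, Cdc45 because it was lower in hypoxia, Mcm7 because its probe sets differed from each other, and Cdc6 because it differed most between the sets. Each is printed 5′ to 3′ along the gene's strand, with capitals marking matches to the E2F motif TTTNNCGC on either strand.
Mcm2, chr6:88898731-88899030, minus strand: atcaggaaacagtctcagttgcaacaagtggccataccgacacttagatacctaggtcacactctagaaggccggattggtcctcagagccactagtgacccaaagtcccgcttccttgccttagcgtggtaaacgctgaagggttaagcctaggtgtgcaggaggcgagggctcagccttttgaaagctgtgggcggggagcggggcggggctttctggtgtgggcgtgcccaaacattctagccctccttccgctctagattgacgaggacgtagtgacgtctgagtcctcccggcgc
Mcm3, chr1:20820263-20820562, minus strand: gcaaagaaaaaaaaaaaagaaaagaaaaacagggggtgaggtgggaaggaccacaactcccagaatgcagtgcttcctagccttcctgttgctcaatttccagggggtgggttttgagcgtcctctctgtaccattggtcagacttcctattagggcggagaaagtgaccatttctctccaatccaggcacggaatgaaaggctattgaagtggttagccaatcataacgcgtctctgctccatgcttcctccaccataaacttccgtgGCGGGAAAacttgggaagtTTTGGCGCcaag
Mcm7, chr5:138171834-138172133, minus strand: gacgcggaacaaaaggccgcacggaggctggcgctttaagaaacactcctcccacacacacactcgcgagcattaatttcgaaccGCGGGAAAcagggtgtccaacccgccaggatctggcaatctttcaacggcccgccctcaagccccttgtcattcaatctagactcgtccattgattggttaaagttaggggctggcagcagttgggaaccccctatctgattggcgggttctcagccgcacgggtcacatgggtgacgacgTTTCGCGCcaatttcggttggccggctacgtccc
Cdc6, chr11:98907901-98908200, plus strand: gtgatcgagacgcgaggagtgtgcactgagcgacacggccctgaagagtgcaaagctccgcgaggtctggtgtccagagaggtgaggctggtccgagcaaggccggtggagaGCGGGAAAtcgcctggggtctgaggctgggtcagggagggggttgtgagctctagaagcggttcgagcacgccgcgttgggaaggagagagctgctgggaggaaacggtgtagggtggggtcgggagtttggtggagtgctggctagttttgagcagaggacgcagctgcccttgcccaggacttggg
Cdc45, chr16:18811923-18812222, minus strand: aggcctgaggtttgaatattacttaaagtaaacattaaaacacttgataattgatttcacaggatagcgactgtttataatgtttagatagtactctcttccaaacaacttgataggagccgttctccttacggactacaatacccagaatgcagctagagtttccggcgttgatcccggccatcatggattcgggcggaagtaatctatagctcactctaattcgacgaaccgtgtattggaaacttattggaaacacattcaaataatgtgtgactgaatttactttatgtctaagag
This motif was found in 6 of the 10 member windows, those of Mcm3, Mcm5, Mcm6, Mcm7, Cdc6 and Cdt1 (only the first of the 2 windows of Mcm7), and in 5.17% of all 32851 windows of this length. In Mcm5 and Mcm6 a match on one strand overlaps a match on the other. The NF-Y motif CCAAT, searched on both strands, was found in 8 of the 10 member windows against 37.4% of all windows, and in the first Mcm7 window it overlaps an E2F match. The core of the HIF motif, ACGTG, was found in 1 of the 10, the second Mcm7 window, against 19.6% of all windows. Neither Mcm2 nor Cdc45 has an E2F match in the window printed. A match is only a stretch of letters in this window.

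Several facts about all arrays bear on what follows. Egln2 (1416533_at) read 8.85 and 8.66 in KO hypoxia, 8.34 and 8.0 in KO normoxia, 9.13 and 8.95 in WT hypoxia and 9.07 and 8.84 in WT normoxia, on the log2 scale of the deposited values, each pair giving the second-set and then the first-set array. KO minus WT was -0.79 ± 0.09 in normoxia (SE of the limma fit, adjusted p = 0.147) and -0.29 ± 0.09 in hypoxia (adjusted p = 0.989), lower in KO in every pairing within a set but past the threshold in neither. Whether this probe set lies in the deleted part is not stated in the labels or files. All 10 hypoxia-induced check genes rose in hypoxia over both genotypes, with a median log2 difference of 2.30. Of the 10 fibroblast markers, Vim lay between 14.33 and 14.45 and Col1a2 between 14.19 and 14.56 over the arrays, while Pdgfra lay between 8.14 and 9.87, Dcn between 8.51 and 9.56 and Lum between 5.46 and 9.69. Macrophage and skeletal muscle markers were highest in the first-set WT arrays. The 10 macrophage and leukocyte markers averaged 4.88 to 5.44 on the KO arrays, 5.58 and 5.73 on the second-set WT arrays and 6.92 and 7.32 on the first-set WT arrays. The 7 muscle markers averaged 5.09 to 5.52 on the KO arrays, 5.23 and 5.11 on the second-set WT arrays and 7.86 and 7.85 on the first-set WT arrays. In such bulk samples, fewer cells of a type and less RNA per cell cannot be told apart.

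**Figure D1:**
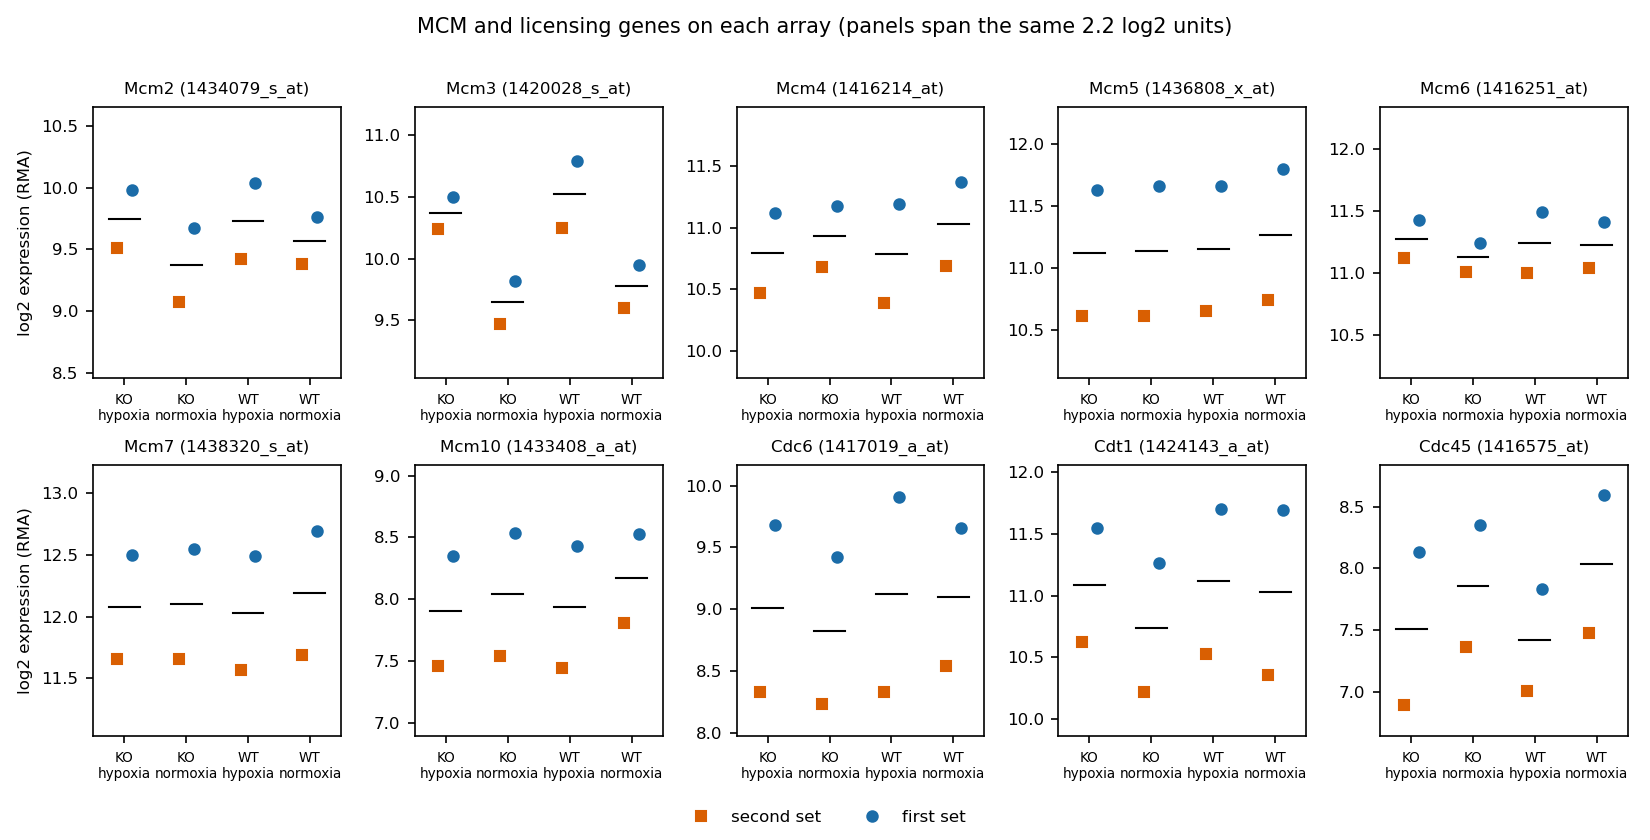
Log2 expression (RMA) of each gene's brightest probe set on the 8 arrays. Squares are second-set arrays, circles first-set arrays and black lines the mean of a group, and every panel spans the same range. Second-set arrays lie below the first-set array of their own group in all 10 panels, and hypoxic arrays of Mcm3 lie above all normoxic ones.

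Hypoxia was compared with normoxia to ask whether low oxygen changes the expression of the licensing machinery. In limma, with the set as a term and Benjamini-Hochberg adjustment over all 33787 probe sets tested, an adjusted p under 0.05 counts as passing. Mcm3 rose in hypoxia in both genotypes. Mcm2 did so by its dimmer probe set, and by its brighter one in KO and over both genotypes only. Cdc45 fell in WT and over both genotypes, and most other members had small differences. Over both genotypes, 10 of the 26 member probe sets rose, beside 10.7% of all probe sets, and 1 of 26 fell, beside 11.9% of all. Taken by the brightest probe set of each gene, 2 of the 10 genes rose, beside the same 10.7%, and 1 fell, beside 11.9%. With 10 genes these counts lie near those shares, which cover all probe sets, also those that are not a gene's brightest. In a fit with 1 probe set per gene, 1854 of 13647 genes rose and 2068 fell. More of the 10 members passed in that fit, as given in the last section. The median log2 difference of the 10 genes was 0.01, beside 0.00 over all probe sets.

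Some control and marker probes moved with hypoxia too. Of the 5 pairs of control probes that read the 3′ and the 5′ part of a transcript, 3 had a higher 3′ minus 5′ log2 signal in hypoxia in all 4 pairings of set and genotype, 1 was lower in all 4 and 1 was higher in 3 of 4. Beta-actin stood at 0.58 ± 0.13 in hypoxia and 0.43 ± 0.14 in normoxia (SD, n = 4 arrays each), and Gapdh, likewise higher in all 4, at 0.45 ± 0.06 in hypoxia and 0.26 ± 0.12 in normoxia. The 18S RNA stood at -0.54 ± 0.11 in hypoxia and -1.75 ± 0.57 in normoxia, and the transferrin receptor, the one that was lower, at -0.01 ± 0.32 in hypoxia and 1.25 ± 0.24 in normoxia. Of the 5 tested neural and glial markers 2 rose, Nefl at 1.16 ± 0.30 and Stmn2 at 0.67 ± 0.09, and of the 9 macrophage and leukocyte markers 1 rose, Cd14 at 0.43 ± 0.13. Of 6 epithelial markers 1 fell, Epcam at -0.41 ± 0.10, and none of the tested fibroblast, endothelial, muscle and erythroid markers passed. The part of these in the members' hypoxia differences was not tested.

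Mcm3, a subunit of the replicative helicase, had the largest difference among the members. Its probe set 1420028_s_at read 10.24 and 10.50 in KO hypoxia, 9.47 and 9.82 in KO normoxia, 10.25 and 10.79 in WT hypoxia and 9.60 and 9.95 in WT normoxia. All 4 hypoxic arrays were above all 4 normoxic arrays. The log2 difference over both genotypes was 0.74 ± 0.06 (SE), a fold of 1.66, with an adjusted p of 0.000434. It was 0.73 ± 0.09 in KO (adjusted p = 0.00665) and 0.75 ± 0.09 in WT (adjusted p = 0.00372). Of the 5 Mcm3 probe sets, 4 rose over both genotypes, and 1426653_at, at 0.14 ± 0.17, did not pass (adjusted p = 0.638). That probe set read 7.05 and 8.08 in KO hypoxia, 7.10 and 7.50 in KO normoxia, 6.65 and 8.04 in WT hypoxia and 7.15 and 7.53 in WT normoxia, so its hypoxic arrays were the higher in the first set and the lower in the second.

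Mcm2, another subunit of the ring, rose by both of its probe sets over both genotypes. Its probe set 1448777_at read 9.25 and 9.44 in KO hypoxia, 8.56 and 8.94 in KO normoxia, 9.29 and 9.59 in WT hypoxia and 8.67 and 9.04 in WT normoxia. The groups again did not overlap. The log2 difference was 0.59 ± 0.06 over both genotypes (adjusted p = 0.000964), 0.60 ± 0.09 in KO (adjusted p = 0.0127) and 0.59 ± 0.09 in WT (adjusted p = 0.00844). The brighter probe set, 1434079_s_at, read 9.51 and 9.98 in KO hypoxia, 9.07 and 9.67 in KO normoxia, 9.42 and 10.04 in WT hypoxia and 9.38 and 9.76 in WT normoxia. Here the ranges overlapped, and the difference over both genotypes was 0.27 ± 0.06 (adjusted p = 0.0201), a call kept in 2 of the 8 fits that each left out 1 array. By this probe set the difference was 0.375 ± 0.09 in KO (adjusted p = 0.0474). In WT it was 0.16 ± 0.09 and did not pass (adjusted p = 0.308). In all, 4 of the 26 member probe sets, 3 of Mcm3 and 1 of Mcm2, had every hypoxic array above every normoxic one, beside 6.73% of all probe sets.

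Cdc45, which joins the loaded ring to form the active helicase, was the one member that fell. Its brighter probe set, 1416575_at, read 6.89 and 8.13 in KO hypoxia, 7.36 and 8.35 in KO normoxia, 7.01 and 7.83 in WT hypoxia and 7.48 and 8.59 in WT normoxia. Each hypoxic array was below the normoxic array of its own set and genotype, while the ranges over both sets overlapped. The log2 difference was -0.48 ± 0.09 over both genotypes (adjusted p = 0.00819), -0.35 ± 0.13 in KO (adjusted p = 0.15) and -0.62 ± 0.13 in WT (adjusted p = 0.0229). The WT call was lost without the first-set WT hypoxia array or either WT normoxia array. The call over both genotypes was kept in all 8 leave-one-out fits and was lost with the set as a random block (adjusted p = 0.135), with no block (adjusted p = 0.672) and without both first-set WT arrays, where the difference was -0.41 (adjusted p = 0.0954). The second Cdc45 probe set, 1457838_at, stood at 0.01 ± 0.11 over both genotypes and did not pass.

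For Mcm7, Mcm5 and Mcm4, as for Cdc45 and a pair of Mcm3 probe sets, the probe sets of a gene differed in their hypoxia response. Mcm7 rose by 1416031_s_at, at 0.35 ± 0.05 (adjusted p = 0.00368), and by 1416030_a_at, at 0.37 ± 0.07 (adjusted p = 0.00713). Its brightest probe set, 1438320_s_at, read 11.66 and 12.50 in KO hypoxia, 11.66 and 12.55 in KO normoxia, 11.57 and 12.49 in WT hypoxia and 11.69 and 12.69 in WT normoxia, and its difference was -0.09 ± 0.04 (adjusted p = 0.17). For Mcm5, 1415945_at rose by 0.32 ± 0.09 over both genotypes (adjusted p = 0.0341), while the brightest, 1436808_x_at, stood at -0.07 ± 0.04 (adjusted p = 0.336). Mcm4 had -0.19 ± 0.06 by 1416214_at (adjusted p = 0.0539) and 0.20 ± 0.07 by 1436708_x_at (adjusted p = 0.0774), the second of which rose in WT, at 0.38 ± 0.10 (adjusted p = 0.0456). That WT call was kept in none of the 8 leave-one-out fits, in which, with the other settings, the difference ranged from 0.26 to 0.51. Neither tested probe set of Mcm6 passed, with 0.09 ± 0.05 by 1416251_at and 0.19 ± 0.06 by 1438852_x_at.

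Among the loading factors, Cdt1 rose by 1424144_at over both genotypes, at 0.30 ± 0.06 (adjusted p = 0.0129). That probe set read 8.89 and 9.46 in KO hypoxia, 8.40 and 9.14 in KO normoxia, 8.94 and 9.68 in WT hypoxia and 8.72 and 9.50 in WT normoxia. Hypoxic arrays were higher in all 4 pairings, with overlapping ranges. The brighter Cdt1 probe set, 1424143_a_at, had 0.22 ± 0.07 (adjusted p = 0.0576). Cdc6 had 0.10 ± 0.09 (adjusted p = 0.467, 95% interval -0.10 to 0.30), and the activating factor Mcm10 had -0.19 ± 0.08 by 1433408_a_at (adjusted p = 0.135). The last was lower in hypoxia in all 4 pairings, as were Mcm4 by 1416214_at and Cdc45 by 1416575_at. In all, 3 of 26 probe sets were lower in every pairing, beside 21.7% of all probe sets, and 11 of 26 were higher in every pairing, beside 21.1%.

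Taken by genotype, 7 of 26 member probe sets rose in KO, beside 3.24% of all, and 0 fell, beside 3.63%. The 7 were both of Mcm2, 3 of Mcm3, 1 of Mcm7 and 1 of Cdt1. In WT, 7 rose, beside 5.7% of all, and 1 fell, beside 5.39%. Those that rose were 1 of Mcm2, 3 of Mcm3, 1 of Mcm4 and 2 of Mcm7, and the one that fell was Cdc45. By the brightest probe set of each gene, 2 of the 10 members rose and 0 fell in KO, and 1 rose and 1 fell in WT. In the fit with 1 probe set per gene, 680 of 13647 genes rose and 700 fell in KO. In WT 1029 of these genes rose and 1208 fell. A call in one genotype and not in the other does not show a difference, and the genotype by oxygen interaction, the KO response minus the WT response, passed for 0 of 26 member probe sets in limma, beside 0% of all. At an unadjusted p under 0.05 there were 2, Mcm4 by 1436708_x_at and Mcm5 by 1459658_at, beside 828 of all 33787 probe sets. For Cdc45 by 1416575_at the interaction was 0.27 ± 0.18 (95% interval -0.14 to 0.68).

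**Figure D2:**
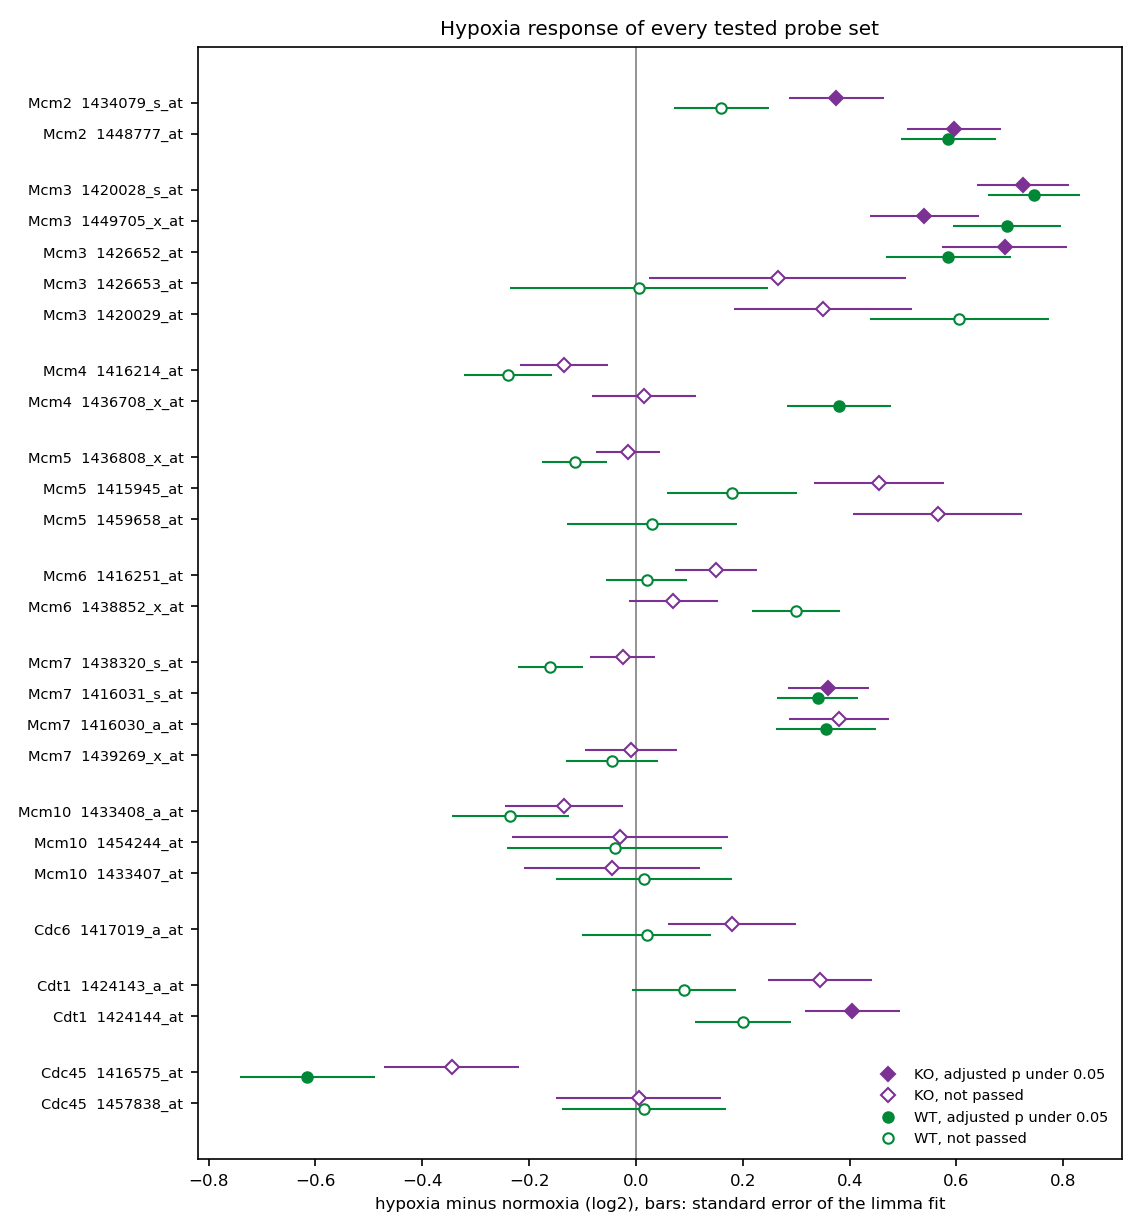
Hypoxia minus normoxia (log2) for the 26 tested probe sets, with diamonds for KO and circles for WT, drawn with the standard error of the limma fit. Filled symbols have an adjusted p under 0.05. Mcm3 by 1420028_s_at lies furthest to the right in both genotypes and Cdc45 by 1416575_at furthest to the left, and of the 4 Mcm7 probe sets 2 lie near 0.35 and 2 just below 0.

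The counts per genotype rest on few arrays. Calls over all probe sets, in both directions, also fell in every fit named in this paragraph, so the losses are not particular to the members. In KO the 7 calls became 0 without the second-set KO hypoxia array or the first-set KO normoxia array, 2 without either of the other KO arrays and 3 without either WT normoxia array. In WT the 8 calls became 0 without the first-set WT normoxia array, 1 without the first-set WT hypoxia array or the second-set WT normoxia array, and 5 without either KO normoxia array. Over both genotypes the 11 calls became 7 without the second-set KO hypoxia array. Of single calls over both genotypes, Mcm5 by 1415945_at and Mcm3 by 1420029_at passed in 2 of the 8 leave-one-out fits, and Cdt1 by 1424144_at in 6, being lost without the second-set KO hypoxia or WT normoxia array. Without both first-set WT arrays, where macrophage and muscle markers were high, 4 calls were left over both genotypes, Mcm2 by 1448777_at (0.61) and Mcm3 by 1420028_s_at (0.69), 1449705_x_at (0.59) and 1426652_at (0.54). In KO there were then 0, with unaltered differences. That fit has 1 residual degree of freedom.

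Loss of Hif-p4h-1 was compared with wild type to ask whether the enzyme affects these genes, and no member passed. In normoxia limma called 0 of 26 member probe sets (lowest adjusted p = 0.802), beside 0.00592% of all probe sets. In hypoxia it called 0 of 26 (lowest adjusted p = 0.989), beside 0% of all. Over both oxygen conditions it again called 0 of 26 (lowest adjusted p = 0.45), beside 0.0444% of all. At an unadjusted p under 0.05 there were 4 of 26 in normoxia, 0 in hypoxia and 1 over both conditions. Of all 33787 probe sets, 1647, 1512 and 2383 were under it in the same order. KO minus WT over both conditions ranged from -0.24 to 0.13 over the 26, and 21 of them were negative. The lowest was Cdt1 by 1424144_at, at -0.24 ± 0.06 with a 95% interval of -0.38 to -0.09 before adjustment, and the array values above show it lower in KO in each pairing. By the brightest probe sets, the differences ran from -0.02 for Mcm7 (95% interval -0.12 to 0.08) to -0.20 for Cdc6 (95% interval -0.39 to 0.00), so no interval reached beyond 0.39 in size. Macrophage and leukocyte markers had a median KO minus WT difference of -1.37 over both conditions (1 of 9 lower, 0 higher) and muscle markers one of -1.57 (0 of 7 passed). Of the 10 fibroblast markers 1 passed, Pdgfra at -0.72 ± 0.07 (adjusted p = 0.03). Their part in the members' values was not tested.

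The largest differences among the members lay between the sets. The second set was lower than the first by the brightest probe set of all 10 genes, with a median log2 difference of -0.91, beside 0.01 over all probe sets. Of the 26 member probe sets, 23 were lower, beside 18.4% of all probe sets, and 0 were higher, beside 18.3%. In 16 of the 26, every second-set array was below every first-set array, beside 12.4% of all. The 3 that did not pass were Mcm3 by 1420029_at, Mcm10 by 1433407_at and Cdc45 by 1457838_at.

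Cdc6, the loading factor of the ring, differed most. It read 8.33, 8.23, 8.33 and 8.54 on the second-set arrays of KO hypoxia, KO normoxia, WT hypoxia and WT normoxia, and 9.68, 9.42, 9.91 and 9.66 on the first-set arrays in the same order. The highest second-set array was well below the lowest first-set array. The difference was -1.31 ± 0.09 (SE), a fold of 0.403, with an adjusted p of 6.35e-05. Cdt1, its partner in loading, averaged 10.43 ± 0.18 in the second set and 11.55 ± 0.21 in the first (SD, n = 4 arrays each) by 1424143_a_at, a limma difference of -1.12 ± 0.07 (adjusted p = 5.17e-05).

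By the brightest probe sets, the ring itself followed in unequal steps. Mcm5 by 1436808_x_at averaged 10.65 ± 0.06 in the second set and 11.69 ± 0.08 in the first (SD, n = 4 arrays each), a limma difference of -1.04 ± 0.04 (SE, adjusted p = 2.83e-05). Mcm7 by 1438320_s_at had -0.91 ± 0.04 (adjusted p = 2.9e-05) and Mcm4 by 1416214_at -0.66 ± 0.06 (adjusted p = 0.000171). Mcm2 by 1434079_s_at had -0.52 ± 0.06 (adjusted p = 0.000633). The smallest differences of brightest probe sets were those of Mcm3, at -0.38 ± 0.06 (adjusted p = 0.00241), and Mcm6, at -0.35 ± 0.05 (adjusted p = 0.00188). Of the activating factors, Cdc45 by 1416575_at averaged 7.19 ± 0.28 in the second set and 8.23 ± 0.32 in the first (SD, n = 4 arrays each), a limma difference of -1.04 ± 0.09 (adjusted p = 0.000152), and Mcm10 by 1433408_a_at had -0.90 ± 0.08 (adjusted p = 0.000157). By these brightest probe sets, Mcm3 thus had the largest hypoxia difference and nearly the smallest set difference. Cdc6 had the largest set difference and a hypoxia difference that did not pass. Other probe sets gave another order between the sets. Mcm3 had -0.80 by 1426653_at, -0.56 by 1449705_x_at, -0.29 by 1426652_at and -0.17 by 1420029_at. Mcm5 had -0.33 by 1415945_at and -0.35 by 1459658_at, and Mcm6 -0.60 by 1438852_x_at. Mcm7 had -0.495 by 1416031_s_at, -0.35 by 1416030_a_at and -0.82 by 1439269_x_at. Mcm4 had -0.59 by 1436708_x_at and Mcm2 -0.31 by 1448777_at. Cdt1 had -0.71 by 1424144_at and Mcm10 -0.525 by 1454244_at.

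**Figure D3:**
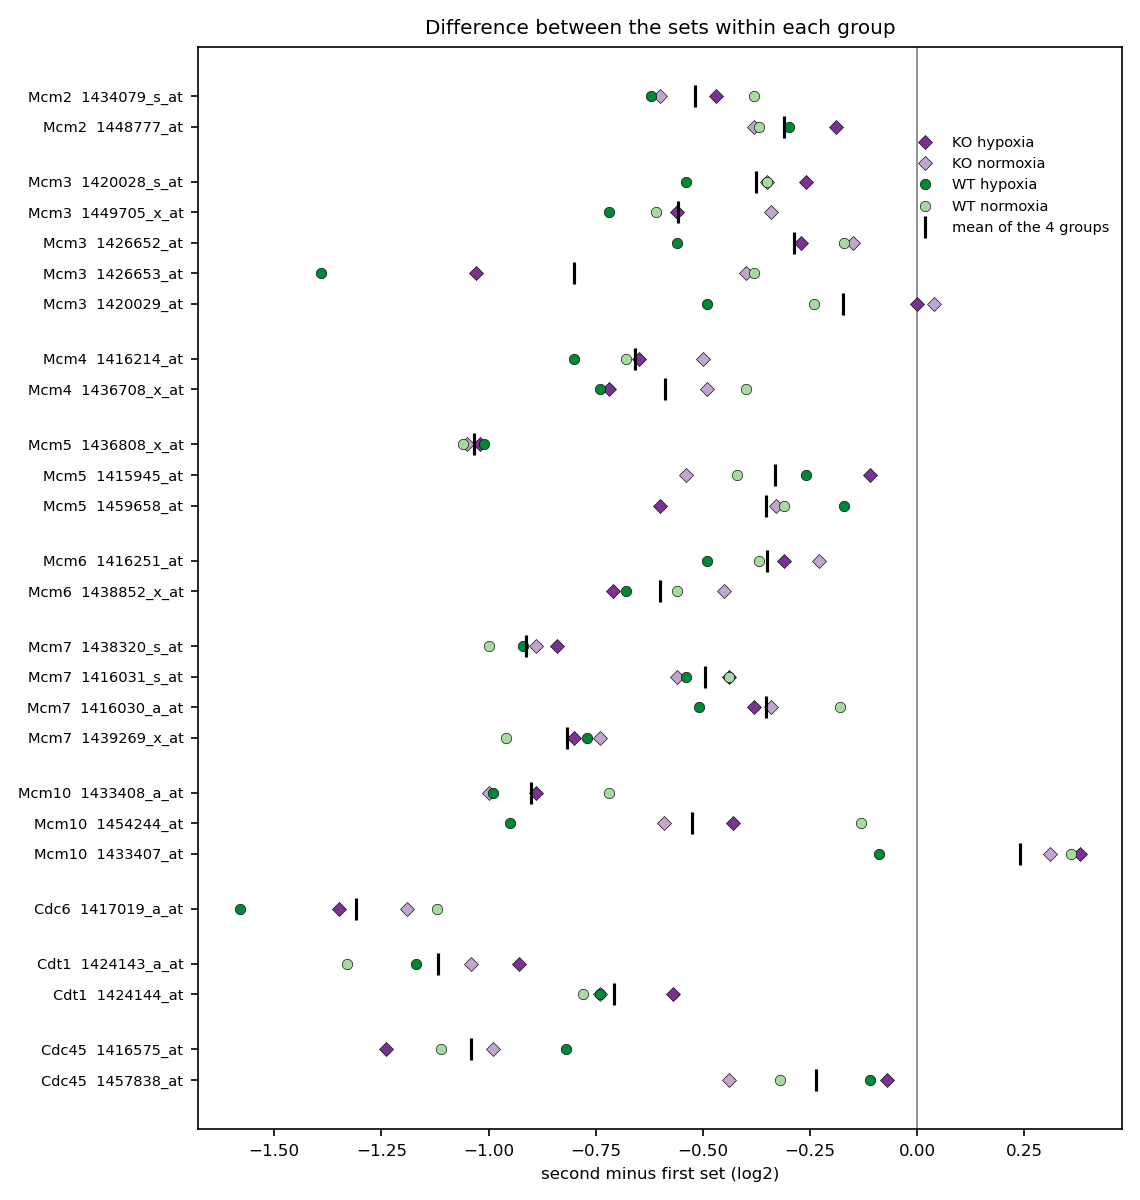
Second minus first set (log2) for the 26 tested probe sets. Diamonds are KO groups, circles WT groups, darker symbols hypoxia, and the upright bar is the mean of the 4 groups. Cdc6 lies furthest to the left and Mcm10 by 1433407_at is the one probe set with a mean above 0.

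Other measures differed between the sets as well. The median log2 difference of the 9 tested macrophage and leukocyte markers was -1.13, with 8 lower and 0 higher, and that of the 7 muscle markers was -1.19, with 2 lower and 0 higher. Of the 10 fibroblast markers 5 were higher and 2 lower, Lum at -2.62 ± 0.35 and Pdgfra at -0.92 ± 0.07. Of 5 neural and glial markers 1 was higher, Tubb3 at 1.1 ± 0.16, and 2 lower, Stmn2 at -2.12 ± 0.09 and Nefl at -1.17 ± 0.30. Of 5 endothelial markers 2 were lower, Kdr at -0.90 ± 0.14 and Tek at -0.56 ± 0.15, and of 6 epithelial markers 1 was higher and 1 lower. The 3′ minus 5′ signals were lower in the second set in all 4 groups for 2 of the 5 controls, beta-actin at 0.39 ± 0.09 in the second set and 0.61 ± 0.09 in the first, and pyruvate carboxylase at 0.53 ± 0.04 in the second set and 0.80 ± 0.07 in the first (SD, n = 4 arrays each). The other 3 did not run one way: Gapdh stood at 0.31 ± 0.17 in the second set and 0.40 ± 0.08 in the first, the transferrin receptor at 0.69 ± 0.53 in the second set and 0.55 ± 0.96 in the first, and the 18S RNA at -0.88 ± 0.43 in the second set and -1.40 ± 0.97 in the first. The part of these in the members' set difference was not tested. Without both first-set WT arrays, where macrophage and muscle markers were highest, the set difference was -1.27 for Cdc6, -1.04 for Mcm5 by 1436808_x_at, -0.99 for Cdt1 by 1424143_a_at and -0.87 for Mcm7 by 1438320_s_at. That fit has 1 residual degree of freedom. The macrophage markers were lower in the second set on the KO arrays too, with means of 4.88 in the second set and 5.44 in the first in KO hypoxia and 5.04 in the second set and 5.34 in the first in KO normoxia.

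Probe sets of 1 gene were next set against each other, because 9 of the 10 members have more than 1. Names ending in _x_at mark probe sets with probes that can match other sequences, _s_at those matching several transcripts that can belong to different genes, and _a_at those matching several transcripts of 1 gene. The difference between 2 probe sets of a gene was fitted in limma across 22371 pairs. For hypoxia over both genotypes, 7 of 27 member pairs differed, beside 21.4% of all pairs. For the sets, 12 of 27 member pairs differed, beside 28.4% of all pairs. Mcm7 by 1438320_s_at differed from 1416031_s_at by -0.44 ± 0.09 in hypoxia (adjusted p = 0.0209) and by -0.42 ± 0.09 between sets (adjusted p = 0.02). The pair 1438320_s_at and 1439269_x_at differed by -0.07 ± 0.08 and -0.10 ± 0.08, neither past the threshold. Mcm5 by 1436808_x_at differed from 1415945_at by -0.38 ± 0.10 in hypoxia (adjusted p = 0.0431) and by -0.70 ± 0.10 between sets (adjusted p = 0.00832). For Mcm4 the pair differed in hypoxia, at -0.39 ± 0.10 (adjusted p = 0.0381), and not past the threshold between sets, at -0.07 ± 0.10 (adjusted p = 0.616). Cdc45 by 1416575_at differed from 1457838_at by -0.49 ± 0.12 in hypoxia (adjusted p = 0.0372) and by -0.805 ± 0.12 between sets (adjusted p = 0.00924). Mcm3 by 1426652_at differed from 1426653_at by 0.50 ± 0.14 in hypoxia (adjusted p = 0.0496) and by 0.51 ± 0.14 between sets (adjusted p = 0.0393). The sources used here do not say which transcripts these probe sets read.

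Other genes of the pathway were taken from lists, by the brightest probe set of each gene. The list counts here and below stand beside these shares of all probe sets. For hypoxia over both genotypes 10.7% rose and 11.9% fell, and between the sets 18.4% were lower and 18.3% higher. In the fit with 1 probe set per gene, of 13647 genes 1854 rose and 2068 fell in hypoxia. Between the sets 2824 of these genes were lower and 3469 higher. Of 6 tested subunits of the origin recognition complex, 1 rose and 1 fell in hypoxia over both genotypes, Orc6 at 0.23 ± 0.06 and Orc2 at -0.50 ± 0.08. Of 7 genes of licensing inhibition and Cdt1 turnover, 4 rose and 1 fell. Gmnn, the geminin that binds and inhibits Cdt1, rose by 0.50 ± 0.06 (adjusted p = 0.0016), and Fbxo5, an inhibitor of the anaphase-promoting complex, rose by 0.31 ± 0.05. Dtl, the receptor through which a ubiquitin ligase recognises Cdt1, had -0.38 ± 0.07 (adjusted p = 0.00628). Mcmbp, a binding partner of the ring subunits, rose by 0.44 ± 0.08 (adjusted p = 0.00613), the one of 3 tested MCM relatives and MCM binding genes to pass.

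Of 15 genes of origin firing and helicase assembly, 1 rose and 2 fell in hypoxia. Timeless, of the fork protection complex, rose by 0.35 ± 0.07, while Cdc7, the kinase that phosphorylates the loaded ring, had -0.32 ± 0.07 and Tipin, the partner of Timeless, -0.18 ± 0.04. Of 21 polymerase, clamp and fork genes, 2 rose and 3 fell, among them Rpa3 at 0.41 ± 0.08 and Pole at -0.33 ± 0.07. Of 6 nucleotide supply genes, 2 rose, Dut at 0.34 ± 0.06 and Rrm1 at 0.21 ± 0.06. Of 13 E2F and RB factors 3 rose and 2 fell, of 17 G1/S cyclins, kinases and inhibitors 8 rose and 1 fell, and of 11 mitotic proliferation markers 3 rose and 2 fell. Members of 1 list moved in opposite directions here, as Plk1 at 0.58 ± 0.08 and Cdk1 at -0.51 ± 0.05 did among the mitotic markers. No gene of these 9 lists passed for KO against WT over both oxygen conditions.

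Between the sets most replication lists were lower in the second. All 21 polymerase, clamp and fork genes were lower, with a median log2 difference of -0.81, as were 14 of 15 origin firing genes (median -0.71), all 6 nucleotide supply genes (median -0.63) and 10 of 11 mitotic markers (median -0.83), with none higher. Pcna, the sliding clamp, had -0.76 ± 0.04, Cdc7 -1.47 ± 0.07 and Top2a, a topoisomerase of dividing cells, -1.11 ± 0.05. Of 6 origin recognition genes 3 were lower and 0 higher, with Orc1 at -1.05 ± 0.08. Of the 3 MCM relatives and MCM binding genes 1 was lower, Mcm8 at -0.615 ± 0.09, and 0 higher, with a median of only -0.04. The inhibitors of licensing were mostly lower too, 5 of 7 with 2 higher, with Gmnn at -0.96 ± 0.06. E2F and RB factors were mixed, 4 of 13 lower and 2 higher, as were G1/S genes, 8 of 17 lower and 3 higher. Cdkn2a, which encodes inhibitors of cell cycle entry, was higher in the second set by 1.74 ± 0.11 (adjusted p = 5.91e-05), and Ccnd1, cyclin D1, had -1.0 ± 0.04. The members' median of -0.91 lies near those of the polymerase and mitotic lists.

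**Figure D4:**
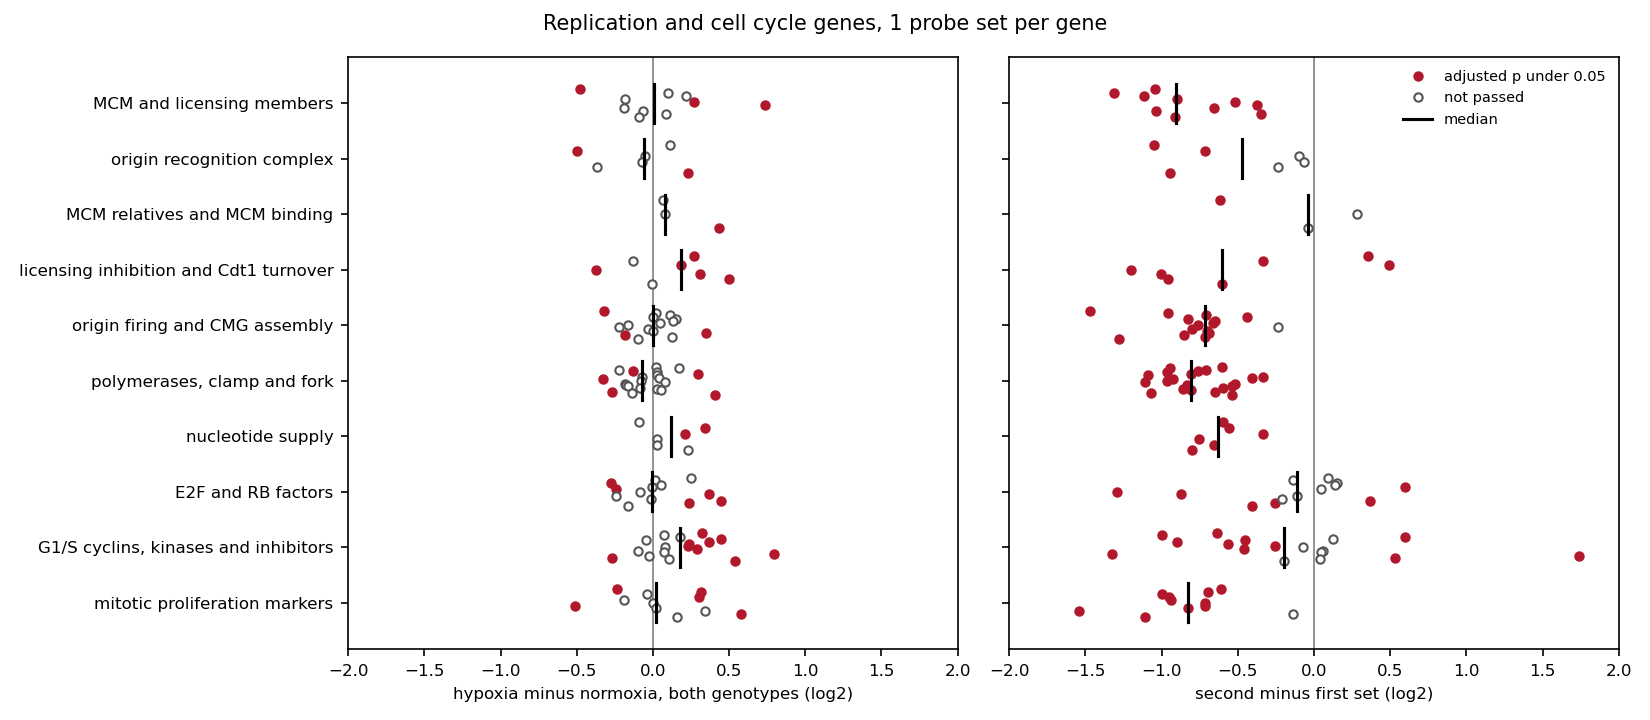
Log2 differences of the members and 9 other lists, 1 point per gene by its brightest probe set, for hypoxia minus normoxia over both genotypes (left) and second minus first set (right). Red points have an adjusted p under 0.05 and black bars are medians. For hypoxia the members' median is 0.01 and the highest list medians, near 0.18, are those of licensing inhibition and of G1/S genes, while between sets the members' median is -0.91.

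The members' profiles over the 8 arrays were similar chiefly through the sets. Over the 45 pairs of member genes, the median Pearson correlation was 0.91 (range 0.03 to 1.00), across 8 arrays that share the 2 sets. With each set's mean subtracted it was 0.18 (range -0.92 to 0.89). The highest of these was for Mcm2 with Mcm3, both of which rose in hypoxia. The mean of Mcm2 to Mcm7 was 10.60, 10.42, 10.55 and 10.52 on the second-set arrays of KO hypoxia, KO normoxia, WT hypoxia and WT normoxia, and 11.19, 11.02, 11.28 and 11.16 on the first-set arrays in the same order. Among 15268 genes compared, those most like it as deposited were Tpp2 (r = 0.997), Aunip (r = 0.995), Gins2 (r = 0.995), Nudt5 (r = 0.995) and Zfp367 (r = 0.995). Gins2 encodes a subunit of GINS, the complex that joins Cdc45 on the ring. With the set means subtracted they were Phpt1 (r = 0.995), Cacng4 (r = 0.985), Spata46 (r = 0.984), Ccdc92 (r = 0.984) and Cnih4 (r = 0.981), so no gene appeared among the 5 nearest by both measures.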

How the data were processed

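Expression was measured in 8 samples, each on its own one-colour Affymetrix array, from cRNA made from 5 µg of total RNA, per the labels' protocols. The deposited values are log2 expression values, 1 per probe set and array, made by the authors with RMA (version not given), per the submitters' processing notes. RMA forces arrays to a common distribution, so a change shared by all transcripts cannot be seen. Whether it was run once over all 8 arrays is not stated in the labels. Array medians lay between 5.01 and 5.12. The number of arrays limits the precision.

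Of 45037 probe sets other than controls, 34945 had 1 gene symbol in the platform annotation, 932 had several and were not named, and 9160 were not listed. Symbols were updated through a RefSeq table of GRCm38.p6 (34741 matched). Probe sets with a mean under the 25th percentile (3.60) were left out, which kept 33787. One limma model (limma 3.58.1, R 4.3.3) held 4 group means and the set, with eBayes and a mean-variance trend, 3 residual degrees of freedom, two-sided tests and Benjamini-Hochberg adjustment over all probe sets tested. Every adjusted p in the text comes from limma. The labels mark the second set, and the second minus first difference correlated between groups at 0.53 to 0.73 over the 6 pairs of groups, so arrays of 1 set deviated together.

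The members and lists were chosen with earlier results of these data known. All members are named, and Cdc6 was read by 1417019_a_at alone. The member probe sets left out by the filter were Mcm6 by 1447756_x_at and Cdt1 by 1455791_at. A gene's own value is its probe set of highest mean. From each list, at most 3 genes with the smallest adjusted p among those that passed were eligible to be named in each comparison, with Egln2 and the 5 genes most like the mean of Mcm2 to Mcm7. Marker values were added for context. The fit of differences between probe sets of 1 gene (without the mean-variance trend), the fit without both first-set WT arrays and the choice of promoters printed were made after seeing the data. Lists of endothelial, epithelial, erythroid and neural markers were also computed, and none of their tested genes passed for KO against WT over both oxygen conditions.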

Additional observations from a re-analysis of the deposited data

How the results depend on the processing

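Results were recomputed under other settings, and no called member probe set changed sign in any of them. The counts for KO against WT in normoxia, in hypoxia and over both conditions, and for the interaction, were 0 in every setting run. Other counts of member probe sets that passed are given for KO, WT and both genotypes (7, 8 and 11 in the fit reported). With no replicate block, so that the pairing of arrays by set was ignored, they were 0, 0 and 0. Of all 33787 probe sets, 14, 22 and 113 then rose and 0, 0 and 41 fell. With the set as a random replicate block they were 1, 2 and 6, while 247, 700 and 2203 of all rose and 162, 516 and 2459 fell. Without the mean-variance trend they were 1 and 3 in KO and WT, while 294 and 912 of all rose and 206 and 656 fell. With only the arrays compared they were 0 and 0, while 32 and 136 of all rose and 8 and 58 fell. With 1 probe set per gene, so that 10 could pass, they were 2, 2 and 5, and 10 between the sets, against 23 of 26. Of all 13647 genes, 680, 1029 and 1854 then rose and 700, 1208 and 2068 fell. Between the sets 2824 were lower and 3469 higher. Leaving out each array in turn gave 0 to 8 in KO, 0 to 6 in WT, 7 to 10 over both and 20 to 21 between the sets. Leaving out both first-set WT arrays, chosen after seeing the data, gave 0 in KO, 4 over both and 14 between the sets, with 1 residual degree of freedom. Over both genotypes, 7 probe sets passed in all 8 fits without 1 array: Mcm2 by 1448777_at, Mcm3 by 1420028_s_at, 1449705_x_at and 1426652_at, Mcm7 by 1416031_s_at and 1416030_a_at, and Cdc45 by 1416575_at. Cdc45 did not pass over both genotypes with the set as a random block. Calls over all probe sets also changed with the array left out. Between the sets they fell in each fit without 1 array, while in KO they rose without either WT hypoxia array. Fits with fewer arrays have fewer residual degrees of freedom, and the cause of the changed counts was not tested.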
